A study of Homo sapiens with 15 samples.

Results

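Untreated HaCaT keratinocytes carrying the R820W allele of CARD14 were compared with WT HaCaT keratinocytes treated with mepazine, to set the expression profile of an allele beside that of a drug that acts on the same complex. HaCaT is a spontaneously immortalised human keratinocyte line. The 2 groups held 6 of the 15 libraries of the series, chosen by the genotype and treatment in their labels. The first group, labelled CARD14 R820W/R820W, had been edited by CRISPR and received vehicle (DMSO). The second, labelled CARD14 WT/WT, received 10 µM mepazine, a phenothiazine used as a MALT1 inhibitor, in place of vehicle. Both were treated for 24 h from the day after plating, and each had 3 libraries, lettered a, b and c. WT cells with vehicle, also 3 libraries, were the common reference for levels. Mepazine-treated R820W cells and CARD14 knockout cells with vehicle entered only the choice of genes tested, the scaling of libraries and the estimate of spread. The labels do not say how many edited lines stood for R820W, so the allele and an edited line cannot be told apart. The 2 groups differed in allele and in drug at once, so a difference between them is not an effect of either alone.

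CARD14 is a scaffold protein of epithelial cells that binds BCL10 and the paracaspase MALT1, and the complex activates NF-kB. MALT1 also cuts a small set of proteins, among them A20 (TNFAIP3) and RELB, and mepazine was described as an inhibitor of that protease activity. MYC, the transcription factor named in the title of the series, drives ribosome biogenesis and growth in basal keratinocytes and is lowered as they differentiate. Mepazine belongs to a class of cationic amphiphilic compounds that collect in lysosomes.

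Depth ranged from 20630099 to 26974363 counts a library, and 3 counts in a library equal 0.111 to 0.145 CPM, the counts scaled to library size. Of the 28518 gene symbols, 14971 were tested. Over these, the R820W and mepazine-treated WT libraries lay at a root mean square log2 distance of 0.502 to 0.526 from each other (median 0.514, 9 pairs). The distance within R820W was 0.361 to 0.373 and within mepazine-treated WT 0.343 to 0.395, so every pair across the groups was farther apart than any pair within one. R820W stood about as far from mepazine-treated WT as from WT with vehicle (median 0.518, 0.4998 to 0.535), while mepazine-treated WT was nearer to WT with vehicle (median 0.430, 0.411 to 0.460). These distances share libraries and are given as a description. Keratinocyte identity genes were high in all of them, with a summed level of 5815 to 6157 CPM of all counts in R820W and 6371 to 6988 in mepazine-treated WT over 12 genes. Fibroblast markers summed to 6.46 to 12.2 CPM in R820W and 5.64 to 7.18 in mepazine-treated WT, with PDGFRA at 0 counts. Melanocyte markers summed to 16.3 to 18.2 and 11.2 to 11.3 CPM, most of it MITF, with TYR and DCT at 0. Leukocyte markers summed to 6.29 to 7.45 and 4.82 to 6.40 CPM, with CD207 at 0. Endothelial markers summed to 7.77 to 10.6 and 10.3 to 13.5 CPM, most of it CDH5 (6.80 to 8.81 and 9.39 to 11.97 CPM). In WT with vehicle the endothelial sum was 4.35 to 6.81 CPM. In bulk RNA, fewer cells of a type and less RNA per cell cannot be told apart.

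In the direct comparison, 3169 genes, or 21.2% of those tested, passed an adjusted p of 0.05 in edgeR's quasi-likelihood test. Of these, 1554 (10.4% of the genes tested) were higher in R820W and 1615 (10.8%) were lower. These shares, and 21.2% in either direction, are the background for every list count below. At least a 2-fold difference was seen for 253 of the former (1.69%) and 212 of the latter (1.42%). For 10208 genes the 95% interval of the log2 difference lay within -0.5 to 0.5, so for most genes the 2 groups lay within that bound. That count includes genes not called against WT with vehicle in either group, so it does not measure a likeness of allele and drug. Against WT with vehicle, R820W had 2879 called genes (19.2%), of which 1590 were higher (10.6%) and 1289 lower (8.61%). Mepazine in WT had 3588 (24.0%), of which 1855 were higher (12.4%) and 1733 lower (11.6%). The comparisons of the allele and of the drug with WT share the same 3 vehicle libraries. Their values are therefore set side by side, and their overlap is not taken as a result. A fold change here is the log2 ratio of R820W to mepazine-treated WT, ± SE, unless another pair of groups is named, and levels are CPM per library or mean ± SD with n = 3.

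**Figure D1:**
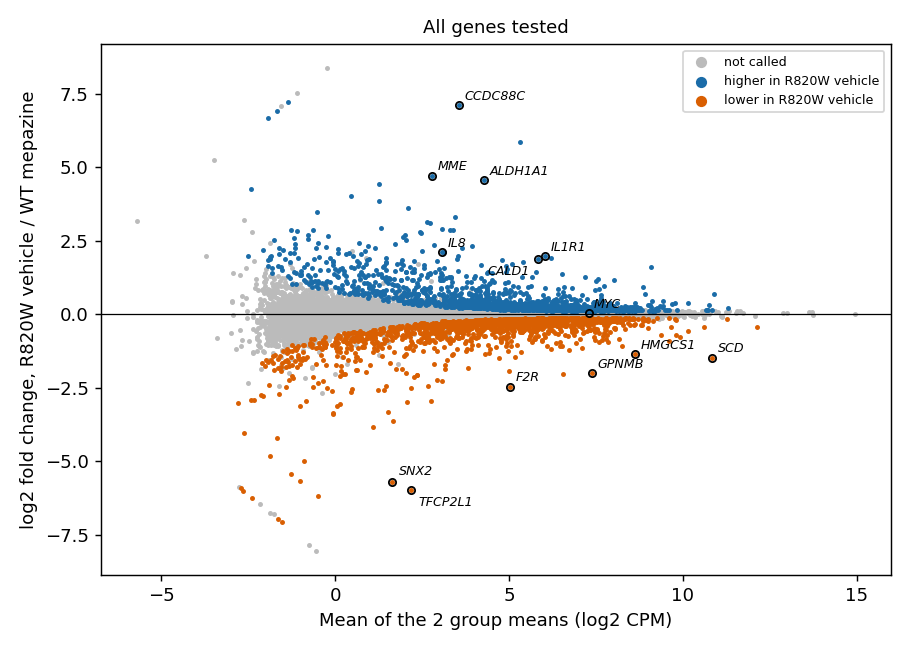
Each point is 1 of the genes tested. The x axis gives the mean level of both groups in log2 CPM and the y axis the log2 fold change of R820W with vehicle over WT with mepazine; coloured points passed an adjusted p of 0.05, and 3 genes with no counts in either group are not drawn. MYC lies near 0 (0.03), the sterol and lipid genes HMGCS1 (-1.35) and SCD (-1.48) lie below it, and CCDC88C (7.11) and TFCP2L1 (-5.97) lie near the extremes.

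The direct differences of CARD14, BCL10 and MALT1 mRNA did not pass the test. CARD14 stood at 1.62, 1.23 and 1.87 CPM in R820W and 1.29, 1.55 and 1.56 CPM in mepazine-treated WT, with a log2 fold change of 0.11 ± 0.216, adjusted p = 0.796. A gene-level count cannot show an amino acid change, so it does not check the edit. BCL10, the adaptor that CARD14 nucleates, was measured at 37.7, 39.1 and 39.5 CPM in R820W and 39.7, 39.99 and 42.1 CPM in mepazine-treated WT. All 3 R820W values lay below the 3 others, but the difference of -0.07 did not pass (95% interval -0.17 to 0.04, adjusted p = 0.411). MALT1, the protease itself, stood at 51.4, 51.2 and 53.7 CPM in R820W and 55.5, 55.5 and 51.3 CPM in mepazine-treated WT. Its values overlapped, and the difference of -0.06 did not pass (95% interval -0.17 to 0.06, adjusted p = 0.537). Of 14 genes listed for the complex, 2 were higher in R820W and none lower. That share of 14.3% lay below the 21.2% called over all genes. Of the 2, TNIP1, which binds A20, had a log2 fold change of 0.20 ± 0.0593, adjusted p = 0.0175. Its call was lost without WT_mepazine a or R820W_vehicle c.

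MYC reached nearly the same level in both groups. It stood at 154, 159 and 164 CPM in R820W and 153, 161 and 152 CPM in mepazine-treated WT, against 197 ± 3.69 in WT with vehicle. Every R820W and every mepazine library lay below all 3 WT vehicle libraries; this shared fall is why the comparison was chosen and is given as a description. Directly compared, the MYC values of the groups overlapped, with a log2 difference of 0.03 ± 0.0391 and a 95% interval of -0.05 to 0.11 (adjusted p = 0.627). A difference larger than 0.113 in either direction thus lay outside the interval. Of the 12 genes listed for the MYC, MAX and MXD network, MXD1, a repressor that competes with MYC for MAX, was the single member called. That is 8.33%, beside 21.2% over all genes. MXD1 was measured at 17.9, 19.1 and 19.1 CPM in R820W and 16.6, 13.2 and 15.5 CPM in mepazine-treated WT (0.30 ± 0.0859, adjusted p = 0.0115). All 3 R820W values were above the others, but the call was lost without WT_mepazine b.

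The list of MYC targets and ribosome biogenesis genes lay slightly higher in R820W than in mepazine-treated WT. Whether MYC activity differed was not tested. Of 59 tested members of this list, 26 were higher in R820W than in mepazine-treated WT and 1 was lower (background 10.4 and 10.8%). The median log2 difference was 0.12, beside -0.0018 over all genes. The count higher was 17 without WT_mepazine c. Every interval of the 59 lay within -0.5 to 0.5, so the differences were small. Against WT with vehicle, 32 of the 59 were lower in R820W (median -0.14) and 51 in mepazine-treated WT (median -0.28), and none was higher in either. The list was thus below WT in both groups and lay lower with the drug. SRM, the spermidine synthase, stood at 112, 122 and 125 CPM in R820W and 91.6, 99.1 and 96.7 CPM in mepazine-treated WT (0.32 ± 0.0472, adjusted p = 7.16e-06), and at 132 ± 4.34 in WT with vehicle. BOP1, which processes the large ribosomal subunit RNA, was at 125, 135 and 138 CPM in R820W and 97.4, 111 and 102 CPM in mepazine-treated WT (0.36 ± 0.0544, adjusted p = 1.22e-05), and at 147 ± 6.83 in WT with vehicle. RRP12, an export factor of pre-ribosomes, was at 103, 113 and 109 CPM in R820W and 87.9, 91.7 and 85.1 CPM in mepazine-treated WT (0.30 ± 0.0487, adjusted p = 3.69e-05), and at 117 ± 4.6997 in WT with vehicle. In all 3 genes the R820W libraries lay above the mepazine libraries without overlap, and their means lay below the mean of WT with vehicle. GNL3, nucleostemin, showed the same order at 150.2, 147 and 142 CPM in R820W and 128, 125 and 123 CPM in mepazine-treated WT (0.22 ± 0.0412, adjusted p = 0.000185).

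NPM1 and ODC1, also on the list, did not pass the direct test. NPM1, nucleophosmin, was at 1269, 1275 and 1274 CPM in R820W and 1268, 1256 and 1176 CPM in mepazine-treated WT, a difference of 0.05 that did not pass (95% interval -0.04 to 0.13, adjusted p = 0.528), and at 1600.4 ± 41.7 in WT with vehicle. ODC1, which starts polyamine synthesis and is a classical MYC target, was at 118, 124 and 117 CPM in R820W and 129, 139 and 123 CPM in mepazine-treated WT (difference -0.12, adjusted p = 0.064), and at 175 ± 3.27 in WT with vehicle. Both genes thus lay below WT in R820W and with mepazine, with the values of ODC1 overlapping between the groups. The difference of ODC1 passed without WT_mepazine c (adjusted p = 0.0264). CDK4, a G1 kinase, was the exception that stood lower in R820W, at 153, 154 and 149 CPM in R820W and 171, 174 and 173 CPM in mepazine-treated WT (-0.18 ± 0.0402, adjusted p = 0.00135). Of the 54 cytosolic ribosomal protein genes tested, 3 were called, all higher in R820W, with a median of 0.07. That share of 5.56% lay below the 21.2% over all genes, and the count was 1 without R820W_vehicle a. In 25 of the 54, all 3 R820W values lay above all 3 mepazine values, and in none below. Over all genes these shares were 19.1 and 19.2%. Against WT with vehicle, 11 of the 54 were lower in R820W (median -0.11) and 37 in mepazine-treated WT (median -0.17).

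The E-box CACGTG, the site to which MYC and MAX bind, reads the same on both strands. It occurred in 18 of the 48 promoters found for the MYC list (37.5%) and in 2030 of all 27305 promoters of this length (7.43%), from 250 bases before to 50 after the gene start in RefSeq on build GRCh38.p14. The promoter of SRM is shown because SRM was among the list members that differed most. It lies at chr1:11059969-11060268 on the minus strand, with the E-box in capitals, 199 bases before the start. A match is a description of the letters and does not show binding.
SRM: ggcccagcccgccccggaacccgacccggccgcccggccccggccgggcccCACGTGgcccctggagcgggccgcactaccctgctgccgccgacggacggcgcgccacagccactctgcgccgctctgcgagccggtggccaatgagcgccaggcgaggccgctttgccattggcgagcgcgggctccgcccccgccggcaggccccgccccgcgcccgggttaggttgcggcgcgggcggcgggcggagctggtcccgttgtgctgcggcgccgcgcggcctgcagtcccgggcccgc

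**Figure D2:**
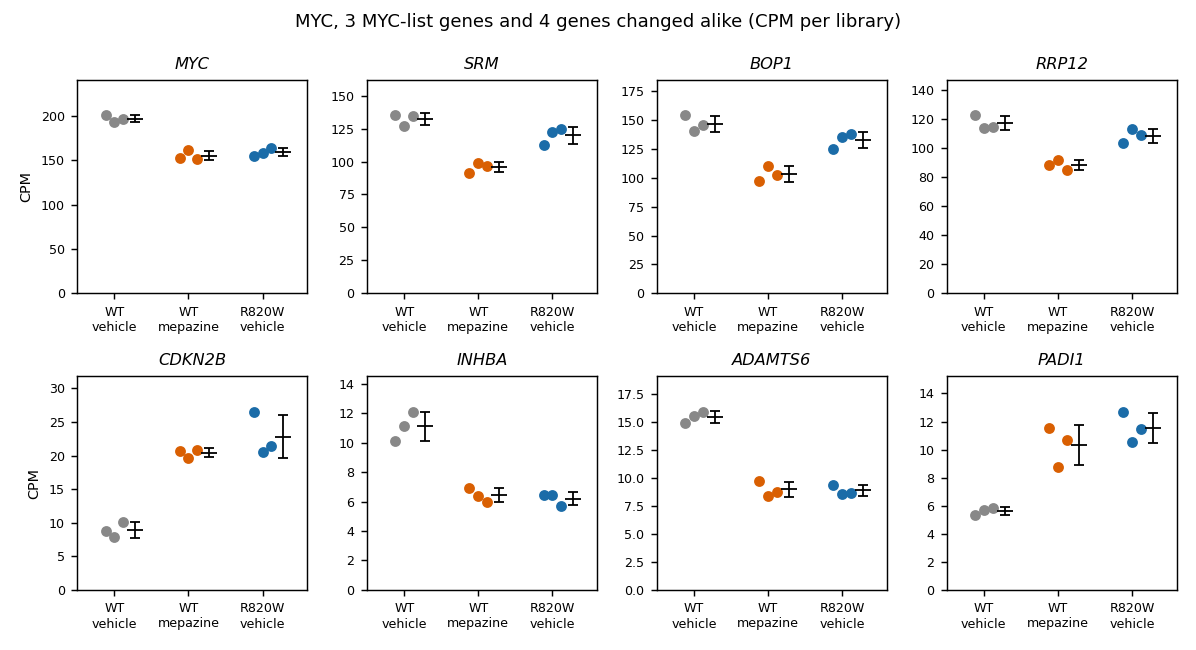
Level in CPM (y axis, from 0) in each library of WT with vehicle, WT with mepazine and R820W with vehicle (x axis); points are libraries a, b and c, and bars the mean ± SD of 3. MYC is alike in the right pair of groups, SRM, BOP1 and RRP12 are higher in R820W than with mepazine, and CDKN2B, INHBA, ADAMTS6 and PADI1 are moved from WT by a similar amount in both.

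Sterol synthesis genes were lower in R820W than in mepazine-treated WT. Cells make cholesterol from acetyl-CoA through a chain of enzymes whose genes are switched on by SREBP2 when sterol in the endoplasmic reticulum is low. Of 25 tested members, 24 were lower in R820W and none higher (background 10.8% lower), with a median log2 difference of -0.75. The median against WT with vehicle was 0.00 in R820W, with 1 member higher and 2 lower, and 0.78 with mepazine, with 24 higher and none lower. HMGCS1, which makes HMG-CoA, stood at 218, 228 and 221 CPM in R820W and 566, 585 and 551 CPM in mepazine-treated WT (-1.35 ± 0.0522, adjusted p = 1.09e-16). Its level in WT with vehicle was 221 ± 8.601, and the difference of R820W from it, 0.01, did not pass (adjusted p = 0.921), so the mepazine libraries stood apart from both. INSIG1, which retains SREBP in the endoplasmic reticulum and is itself an SREBP target, was at 66.9, 63.7 and 63.5 CPM in R820W and 145, 149.8 and 154 CPM in mepazine-treated WT (-1.21 ± 0.0544, adjusted p = 1.48e-15), and at 65.98 ± 5.65 in WT with vehicle. ACAT2, which condenses acetyl-CoA at the head of the pathway, was at 56.9, 59.03 and 56.8 CPM in R820W and 126, 121 and 117 CPM in mepazine-treated WT (-1.08 ± 0.0481, adjusted p = 9.17e-16). In these 3 genes no R820W library came near a mepazine library. SREBF2, which encodes SREBP2, was at 141, 139 and 148 CPM in R820W and 205, 202 and 217 CPM in mepazine-treated WT (-0.55 ± 0.047004, adjusted p = 5.88e-10).

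Fatty acid genes followed the same direction. Of 19 tested, 16 were lower in R820W and 2 higher, with a median of -0.62. SCD, the desaturase that makes oleate, was at 978, 977 and 960.1 CPM in R820W and 2704, 2642 and 2793 CPM in mepazine-treated WT (-1.48 ± 0.0428, adjusted p = 1.78e-19). Its level in WT with vehicle was 1149 ± 34.2, between the groups, with R820W below it by -0.24 (adjusted p = 0.000126) and mepazine above it by 1.24 (adjusted p = 3.06e-17). ELOVL5, which elongates polyunsaturated fatty acids, lay the same way on both sides of 85.7 ± 2.59 in WT with vehicle, at 59.02, 62.5 and 59.1 CPM in R820W and 120.02, 117 and 114 CPM in mepazine-treated WT (-0.96 ± 0.0509, adjusted p = 3.04e-14). LPIN1, a phosphatidate phosphatase, was the third gene of this kind, at 32.1, 36.7 and 35.2 CPM in R820W and 65.5, 67.8 and 64.8 CPM in mepazine-treated WT (-0.93 ± 0.0545, adjusted p = 2.48e-13), with 43.03 ± 1.42 in WT with vehicle. FADS1, the delta-5 desaturase, did not differ in R820W by a called amount from untreated WT (71.4 ± 1.47), and was at 77.7, 74.5 and 71.1 CPM in R820W and 118, 120.1 and 127 CPM in mepazine-treated WT (-0.71 ± 0.0428, adjusted p = 5.15e-13). The 2 members higher in R820W were SCD5, another desaturase (0.58 ± 0.07999, adjusted p = 3.22e-06), and ELOVL1, an elongase of very long chains (0.21 ± 0.0458, adjusted p = 0.00103). Of 10 genes of sterol efflux and the LXR pathway, 6 were lower in R820W and none higher. NPC2, which carries cholesterol out of lysosomes, differed most among these, at 134, 125 and 132 CPM in R820W and 221, 217 and 229.6 CPM in mepazine-treated WT (-0.77 ± 0.04295, adjusted p = 9.41e-14), and SREBF1, the fatty acid arm's transcription factor, followed (-0.62 ± 0.0636, adjusted p = 3.4e-07). The sterol regulatory element TCACNCCAC, searched on both strands, was found in 1 of 18 cholesterol promoters (5.56%, SREBF2) and in 0 of 17 fatty acid promoters. Over all promoters the share was 1.15%, so this string was rare in these windows.

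Lysosomal genes were also lower in R820W, by smaller amounts and in part of the list. Lysosomes break down cell material at low pH, and the MiT/TFE transcription factors raise their genes. Of 44 tested hydrolases and membrane proteins, 18 were lower in R820W and 3 higher (background 10.8 and 10.4%), with a median of -0.14. Both groups lay above WT with vehicle in this list: 15 members were higher in R820W (median 0.12) and 26 with mepazine (median 0.28). NEU1, the lysosomal sialidase, was at 19.5, 18.7 and 19.5 CPM in R820W and 37.2, 33.1 and 36.5 CPM in mepazine-treated WT (-0.89 ± 0.0643, adjusted p = 1.69e-11). Against 15.4 ± 1.08 in WT with vehicle, it was higher by 0.32 in R820W (adjusted p = 0.0015) and by 1.21 with mepazine (adjusted p = 2.09e-13). The groups thus lay on the same side of WT by different amounts. TPP1, a tripeptidyl peptidase, was at 111, 113 and 115 CPM in R820W and 171, 161 and 185 CPM in mepazine-treated WT (-0.61 ± 0.0561, adjusted p = 7.23e-09), with 109 ± 3.04 in WT with vehicle. CTSA, the protective protein of NEU1, was at 123, 109.6 and 117 CPM in R820W and 142, 132 and 145 CPM in mepazine-treated WT (-0.26 ± 0.0598, adjusted p = 0.00271), and no library overlapped. Members higher in R820W were SGSH (0.27), CTSZ (0.19) and MAN2B1 (0.16), all hydrolases of the lysosome; the call of MAN2B1 was lost without WT_mepazine a or b or R820W_vehicle c. Of 16 subunits of the vacuolar proton pump, which acidifies the lysosome, 8 were lower in R820W and none higher (background 10.8% lower). The median of the subunits was -0.16. ATP6V1C1, a subunit of the pump's cytosolic part, differed most, at 74.1, 75.7 and 75.1 CPM in R820W and 97.7, 101 and 93.9 CPM in mepazine-treated WT (-0.38 ± 0.05003, adjusted p = 1.43e-06).

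The autophagy and MiT/TFE list held autophagy receptors and the folliculin and Rag machinery of the lysosome surface. Of 23 tested, 11 were lower in R820W and 1, MITF, was higher. GPNMB, a glycoprotein raised in stressed lysosomes, was at 73.2, 63.6 and 65.7 CPM in R820W and 276, 246 and 291 CPM in mepazine-treated WT (-2.00 ± 0.0725, adjusted p = 6.58e-13), and at 52.1 ± 3.06 in WT with vehicle. R820W lay a little above WT and mepazine far above both. SQSTM1, the autophagy receptor p62, was at 199.9, 199.8 and 192 CPM in R820W and 396, 416 and 425 CPM in mepazine-treated WT (-1.06 ± 0.0404, adjusted p = 3.73e-17), with 185 ± 6.65 in WT with vehicle. RRAGC, a Rag GTPase that recruits mTORC1, was at 41.4, 39.4 and 39.5 CPM in R820W and 68.1, 69.2 and 68.8 CPM in mepazine-treated WT (-0.78 ± 0.0482, adjusted p = 7.73e-13). FNIP1, a partner of folliculin, was at 37.9, 40.1 and 36.3 CPM in R820W and 70.3, 67.1 and 67.9 CPM in mepazine-treated WT (-0.85 ± 0.0645, adjusted p = 8.52e-11). For SQSTM1, RRAGC and FNIP1 the difference of R820W from WT with vehicle did not pass (0.09, -0.06 and 0.06; adjusted p = 0.146, 0.428 and 0.609). MITF, a member of the MiT/TFE family and also a melanocyte marker, went the other way, at 15.01, 16.3 and 14.6 CPM in R820W and 9.37, 9.58 and 9.104 CPM in mepazine-treated WT (0.71 ± 0.0892, adjusted p = 6.34e-07). Of the 6 other melanocyte markers, TYR and DCT were at 0 counts, TYRP1 and SOX10 held 0 to 3 counts a library, MLANA 14 to 27 and PMEL 11 to 23. The part of other cells in the MITF difference was not tested.

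The E-box letters CACGTG were found in 8 of 25 lysosome promoters (32.0%) and in 3 of 21 autophagy and MiT/TFE promoters (14.3%). The longer form TCACGTGA, which contains the E-box, was found in 5 and 1 of these and in 1.04% of all promoters. The promoters of NEU1 and RRAGC are shown because both genes were lower in every R820W library than in every mepazine library and both hold an E-box, in capitals. NEU1 lies at chr6:31862772-31863071 and RRAGC at chr1:38859723-38860022, both on the minus strand of GRCh38.p14 (RefSeq), and the E-boxes begin 126 and 112 bases before the start.
NEU1: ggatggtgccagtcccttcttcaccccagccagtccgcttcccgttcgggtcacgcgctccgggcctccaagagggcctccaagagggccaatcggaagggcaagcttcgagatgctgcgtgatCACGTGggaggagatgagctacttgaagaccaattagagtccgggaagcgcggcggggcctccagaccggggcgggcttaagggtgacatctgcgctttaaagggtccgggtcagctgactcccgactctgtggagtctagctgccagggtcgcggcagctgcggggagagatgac
RRAGC: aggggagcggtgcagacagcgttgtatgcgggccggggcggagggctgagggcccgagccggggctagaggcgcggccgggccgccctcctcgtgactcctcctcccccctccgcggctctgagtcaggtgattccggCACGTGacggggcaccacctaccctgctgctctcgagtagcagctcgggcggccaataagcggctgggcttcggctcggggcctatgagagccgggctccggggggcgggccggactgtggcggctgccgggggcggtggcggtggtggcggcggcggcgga

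**Figure D3:**
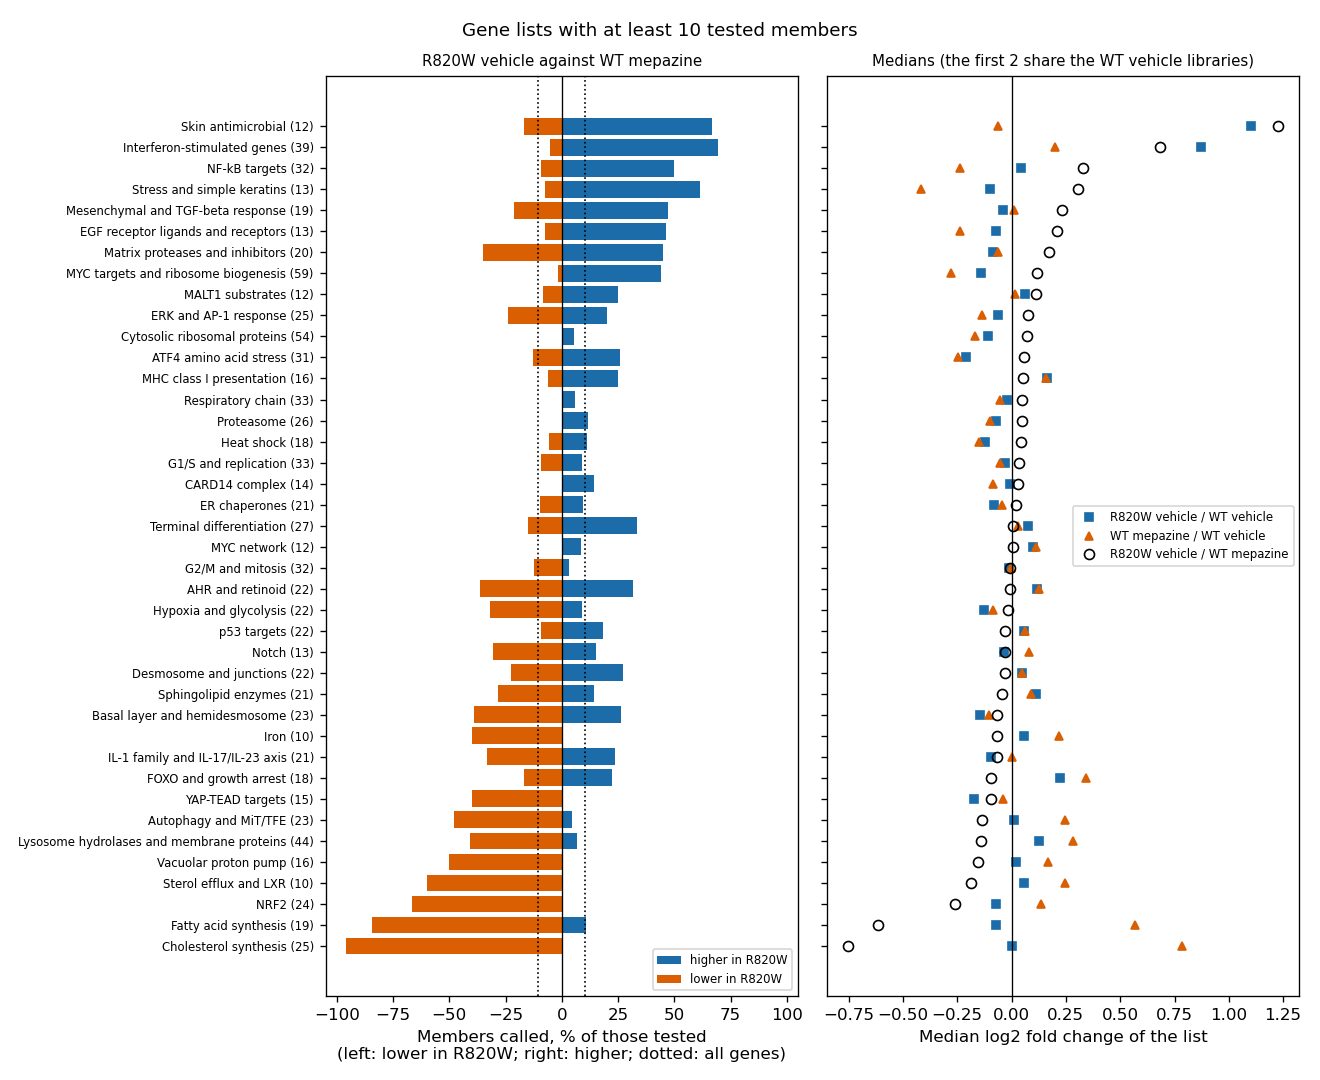
Left: share of the tested members of each list (number in brackets) called lower (left of 0) or higher (right of 0) in R820W with vehicle than in WT with mepazine, in percent; dotted lines mark 10.8 and 10.4%, the shares over all genes. Right: median log2 fold change of each list for the allele against WT vehicle (squares), the drug against WT vehicle (triangles) and the direct comparison (circles). Cholesterol synthesis lies lowest (-0.75) and skin antimicrobial genes highest (1.23).

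NF-kB target genes were higher in R820W. NF-kB factors, released from inhibitors such as IkB alpha, switch on chemokines, cytokines and their own inhibitors. Of 32 tested targets, 16 were higher in R820W and 3 lower (background 10.4 and 10.8%), with a median of 0.33. Against WT with vehicle, 7 were higher and 6 lower in R820W, while 5 were higher and 14 lower with mepazine. IL8 (CXCL8), the neutrophil chemokine, was at 12.03, 15.3 and 13.99 CPM in R820W and 2.51, 4.04 and 3.08 CPM in mepazine-treated WT (2.11 ± 0.151, adjusted p = 8.52e-11). WT with vehicle stood between at 10.4 ± 0.539, with R820W above it (0.40 ± 0.124, adjusted p = 0.0253) and mepazine below it (-1.71 ± 0.155, adjusted p = 1.66e-08). CXCL1, another neutrophil chemokine, was at 8.01, 11.2 and 9.95 CPM in R820W and 3.32, 4.38 and 3.22 CPM in mepazine-treated WT (1.41 ± 0.1304, adjusted p = 1.73e-09), and at 8.87 ± 0.916 in WT with vehicle. MMP9, a gelatinase, was at 6.58, 7.28 and 6.604 CPM in R820W and 2.14, 2.53 and 2.85 CPM in mepazine-treated WT (1.45 ± 0.138, adjusted p = 2.94e-09), and at 8.705 ± 1.15 in WT with vehicle. The mepazine libraries were thus low for all 3 genes and R820W was near WT for CXCL1. NFKBIA, which encodes the inhibitor IkB alpha, was at 96.7, 96.5 and 98.4 CPM in R820W and 68.99, 75.9 and 69.9 CPM in mepazine-treated WT (0.44 ± 0.0517, adjusted p = 1.92e-07). The 3 members lower in R820W were IL1A, IL1B and the monocyte chemokine CCL2. IL1B was at 14.9, 14.2 and 15.4 CPM in R820W and 25.3, 27.02 and 22.1 CPM in mepazine-treated WT (-0.74 ± 0.0726, adjusted p = 6.27e-09), and at 39.1 ± 0.466 in WT with vehicle, so both groups lay below WT. CCL2 was at 1.24, 1.61 and 1.22 CPM in R820W and 7.38, 8.42 and 7.31 CPM in mepazine-treated WT (-2.50 ± 0.174, adjusted p = 2.13e-12), with 5.68 ± 1.03 in WT with vehicle. The list thus held members of both directions, and its lower members were lower in R820W than in WT as well.

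Of 12 known MALT1 substrates, 3 were higher in R820W at the mRNA level and 1 lower, or 33.3% called beside 21.2% over all genes. Cleavage of the proteins was not measured. TNFAIP3, which encodes the deubiquitinase A20, was at 50.1, 60.4 and 56.7 CPM in R820W and 33.1, 37.2 and 30.9 CPM in mepazine-treated WT (0.72 ± 0.07095, adjusted p = 2.49e-08), and at 64.4 ± 2.08 in WT with vehicle. RELB, an NF-kB subunit, was at 15.7, 18.7 and 19.5 CPM in R820W and 9.89, 12.1 and 11.2 CPM in mepazine-treated WT (0.70 ± 0.0848, adjusted p = 3.49e-07), and at 17.3 ± 0.685 in WT with vehicle. In RELB the R820W libraries spanned the WT mean and the mepazine libraries lay below it. ZC3H12A, the RNase regnase-1, was at 17.9, 21.2 and 20.4 CPM in R820W and 12.5, 15.6 and 14.2 CPM in mepazine-treated WT (0.50 ± 0.0901, adjusted p = 0.000154). CYLD, a deubiquitinase, was the lower one, at 23.1, 20.5 and 21.9 CPM in R820W and 27.4, 24.4 and 25.5 CPM in mepazine-treated WT (-0.24 ± 0.06196, adjusted p = 0.00555), a call lost without WT_mepazine a or R820W_vehicle b. Not overlapping in either gene, the groups differed here by less than in TNFAIP3.

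The kappaB letters GGANTTTCC, searched on both strands, were found in 9 of 26 NF-kB target promoters (34.6%) and in 1.64% of all promoters. The promoters of IL8 and CXCL1 are shown because these chemokines were among the members that differed most. IL8 lies at chr4:73740319-73740618 and CXCL1 at chr4:73869143-73869442, both on the plus strand of GRCh38.p14 (RefSeq), with the match in capitals, beginning 91 and 78 bases before the start.
IL8: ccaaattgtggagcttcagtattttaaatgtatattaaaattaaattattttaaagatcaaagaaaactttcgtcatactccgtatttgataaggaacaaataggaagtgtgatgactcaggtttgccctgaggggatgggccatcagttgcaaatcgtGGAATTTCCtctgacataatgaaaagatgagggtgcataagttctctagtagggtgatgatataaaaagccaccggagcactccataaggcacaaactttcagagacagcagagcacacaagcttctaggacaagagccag
CXCL1: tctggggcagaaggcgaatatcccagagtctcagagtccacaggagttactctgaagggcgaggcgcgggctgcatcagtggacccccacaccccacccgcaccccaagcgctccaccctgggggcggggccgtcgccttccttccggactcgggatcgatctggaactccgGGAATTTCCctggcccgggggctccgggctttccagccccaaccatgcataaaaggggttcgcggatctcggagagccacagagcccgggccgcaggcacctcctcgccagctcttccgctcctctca

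Genes of cytokine signalling moved both ways. Of 21 tested genes of the IL-1 family and the IL-17 and IL-23 axis, 5 were higher in R820W and 7 lower. IL1R1, the signalling receptor for IL-1, was at 102, 104 and 108 CPM in R820W and 26.9, 27.3 and 25.98 CPM in mepazine-treated WT (1.97 ± 0.0542, adjusted p = 4.07e-20), and at 33.1 ± 3.13 in WT with vehicle. IL1R2, the decoy receptor, was at 1.86, 1.69 and 1.39 CPM in R820W and 0.406, 0.773 and 0.552 CPM in mepazine-treated WT (1.52 ± 0.2804, adjusted p = 0.000113), and at 1.36 ± 0.292 in WT with vehicle. R820W was thus the high group for IL1R1, and mepazine-treated WT the low group for IL1R2. The ligands IL1A (-0.51 ± 0.121, adjusted p = 0.00446) and IL1B were lower in R820W. IL20RB, a receptor subunit for IL-20 family cytokines of the skin, was at 19.5, 20.7 and 20.3 CPM in R820W and 29.8, 28.3 and 32.3 CPM in mepazine-treated WT (-0.58 ± 0.06604, adjusted p = 1.3e-07), with 32.1 ± 1.49 in WT with vehicle.

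Of 13 tested EGF receptor ligands and receptors, 6 were higher in R820W, the ligands EGF, EREG, AREG, TGFA and HBEGF and the receptor ERBB3, and 1, EGFR, was lower. These ligands are shed from keratinocytes and act on the same cells. EREG was at 20.2, 22.01 and 21.1 CPM in R820W and 11.5, 13.4 and 11.2 CPM in mepazine-treated WT (0.81 ± 0.0871, adjusted p = 3.59e-08), and at 22.8 ± 0.711 in WT with vehicle. TGFA was at 73.5, 81.04 and 72.4 CPM in R820W and 55.3, 55.9 and 51.6 CPM in mepazine-treated WT (0.48 ± 0.0558, adjusted p = 1.81e-07), and at 80.9 ± 2.801 in WT with vehicle. AREG was at 12.8, 11.9 and 13.2 CPM in R820W and 8.34, 8.59 and 8.51 CPM in mepazine-treated WT (0.57 ± 0.0885, adjusted p = 1.5e-05), and at 18.02 ± 1.35 in WT with vehicle. For EREG and TGFA, R820W lay near WT with vehicle and the drug below it, while AREG was lower than WT in both groups and lowest with mepazine. EGFR differed little (-0.17 ± 0.0461, adjusted p = 0.00893), and its call was lost without WT_mepazine a or R820W_vehicle a. The calls of EGF and HBEGF were lost in DESeq2 and without WT_mepazine b or c or R820W_vehicle b or c, and in DESeq2, with no filter on low counts and without WT_mepazine a or c or R820W_vehicle b or c, respectively. EGF was tested under 10 of the 12 alternatives only. Of 25 genes of the ERK and AP-1 response, 5 were higher and 6 lower, with no common direction; the count lower was 3 without WT_mepazine b or R820W_vehicle a. FOSL1, an AP-1 subunit, was higher (0.19 ± 0.04497, adjusted p = 0.00235), and the ERK phosphatase DUSP6 lower (-0.34 ± 0.0501, adjusted p = 7.86e-06).

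Matrix proteases and their inhibitors were strongly split, with 9 of 20 tested higher in R820W and 7 lower. SERPINB2, the intracellular inhibitor of plasminogen activators, was at 277, 259.7 and 259 CPM in R820W and 109.6, 129.7 and 111 CPM in mepazine-treated WT (1.18 ± 0.0586, adjusted p = 2.66e-13), and at 303 ± 5.44 in WT with vehicle. ADAM19, a membrane metalloprotease, was at 44.2, 47.2 and 46.7 CPM in R820W and 13.7, 16.4 and 13.9 CPM in mepazine-treated WT (1.65 ± 0.0738, adjusted p = 7.03e-16), and at 24.97 ± 1.58 in WT with vehicle. SERPINB2 was thus low with the drug and near WT in R820W, while ADAM19 was moved to opposite sides of WT. PLAUR, the urokinase receptor, was at 20.1, 22.9 and 21.4 CPM in R820W and 11.6, 11.9 and 12.9 CPM in mepazine-treated WT (0.83 ± 0.0734, adjusted p = 1.09e-09). MMP1, the interstitial collagenase, stood lower in R820W, at 0.309, 0.0423 and 0.434 CPM in R820W and 1.51, 1.42 and 1.93 CPM in mepazine-treated WT (-2.60 ± 0.412, adjusted p = 5.06e-06), and at 2.89 ± 0.381 in WT with vehicle. Both groups lay below WT for MMP1, R820W the more (-3.44 against -0.84). The R820W value of 0.0423 CPM is under the level of 3 counts in a library (0.111 to 0.145 CPM). Without 1 library at a time, the direct difference of MMP1 ran from -3.12 to -2.11. TIMP2, a tissue inhibitor of metalloproteases, was at 22.9, 19.7 and 21.7 CPM in R820W and 44.5, 43.5 and 48.3 CPM in mepazine-treated WT (-1.08 ± 0.0645, adjusted p = 3.4e-13), and at 25.7 ± 0.448 in WT with vehicle.

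Interferon-stimulated genes were higher in R820W. These genes encode antiviral effectors and are switched on through transcription factors that include STAT2 and IRF9. Of 39 tested, 27 were higher in R820W than in mepazine-treated WT and 2 lower (background 10.4 and 10.8%), with a median of 0.68. Against WT with vehicle, 33 were higher and 1 lower in R820W (median 0.87), and 12 were higher and 2 lower with mepazine (median 0.20). SAMD9L, a restriction factor, was at 48.3, 42.95 and 45.8 CPM in R820W and 15.5, 14.5 and 16.7 CPM in mepazine-treated WT (1.55 ± 0.0705, adjusted p = 9.42e-16), and at 10.7 ± 1.16 in WT with vehicle. DDX60, a helicase that aids RNA sensing, was at 68.8, 73.3 and 74.9 CPM in R820W and 30.8, 29.3 and 29.2 CPM in mepazine-treated WT (1.28 ± 0.05898, adjusted p = 1.59e-15), and at 29.3 ± 1.71 in WT with vehicle. SAMD9, the neighbouring paralog of SAMD9L, was at 289, 287 and 278 CPM in R820W and 139, 142 and 155 CPM in mepazine-treated WT (0.97 ± 0.0458, adjusted p = 2.87e-15), and at 147 ± 9.17 in WT with vehicle. IFI44 was at 31.2, 32.1 and 30.3 CPM in R820W and 13.8, 10.4 and 9.702 CPM in mepazine-treated WT (1.45 ± 0.0823, adjusted p = 9.41e-14), and at 12.1 ± 0.1248 in WT with vehicle. In DDX60, SAMD9 and IFI44, mepazine-treated WT did not differ from WT with vehicle by a called amount (adjusted p = 0.832, 0.787 and 0.564), and in SAMD9L it was higher by 0.55. ISG15, the ubiquitin-like modifier, was at 31.8, 32.7 and 30.8 CPM in R820W and 15.2, 12.5 and 14.9 CPM in mepazine-treated WT (1.16 ± 0.0673, adjusted p = 1.76e-13). The 2 members lower in R820W were IFI16, a DNA sensor (-0.69 ± 0.04401, adjusted p = 1.38e-12), and STAT2 itself (-0.17 ± 0.0563, adjusted p = 0.028), whose call was lost without WT_mepazine a or c or R820W_vehicle a or b. Of 16 genes of MHC class I presentation, 4 were higher and 1, the transactivator NLRC5, was lower (-0.42 ± 0.0767, adjusted p = 0.000165). In either direction 31.2% were called, beside 21.2% over all genes. The 4 higher genes did not keep their calls, with 0 higher without WT_mepazine a and 1 without WT_mepazine b or R820W_vehicle a, and 2 without R820W_vehicle c. Of 10 leukocyte markers, 2 were tested. CD14, a monocyte marker, was higher in R820W, with 79 counts over the 3 libraries against 42 (0.89 ± 0.293, adjusted p = 0.0264), a call lost in DESeq2 and without WT_mepazine a or c or R820W_vehicle a or b. CD68 held 360 and 320 counts, and the other markers 0 to 12 a library, with PTPRC at 3 and 0 over the 3 libraries. Their part in these results was not tested.

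The interferon-stimulated response element, written as GAAA, any 2 bases and GAAA again, and searched on both strands, was found in 18 of 30 promoters of the interferon list (60.0%) and in 3.65% of all promoters. The promoters of DDX60 and SAMD9 are shown because R820W was higher than both WT groups for these genes. DDX60 lies at chr4:168318703-168319002 and SAMD9 at chr7:93117930-93118229, both on the minus strand of GRCh38.p14 (RefSeq). Matches are in capitals, 2 in DDX60 and 1 in SAMD9, and the first begins 88 and 136 bases before the start.
DDX60: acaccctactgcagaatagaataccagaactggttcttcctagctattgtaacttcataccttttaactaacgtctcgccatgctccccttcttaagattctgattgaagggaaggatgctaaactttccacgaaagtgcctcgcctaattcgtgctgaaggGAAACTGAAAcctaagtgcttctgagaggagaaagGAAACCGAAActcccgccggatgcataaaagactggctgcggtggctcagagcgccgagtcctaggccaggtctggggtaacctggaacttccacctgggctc
SAMD9: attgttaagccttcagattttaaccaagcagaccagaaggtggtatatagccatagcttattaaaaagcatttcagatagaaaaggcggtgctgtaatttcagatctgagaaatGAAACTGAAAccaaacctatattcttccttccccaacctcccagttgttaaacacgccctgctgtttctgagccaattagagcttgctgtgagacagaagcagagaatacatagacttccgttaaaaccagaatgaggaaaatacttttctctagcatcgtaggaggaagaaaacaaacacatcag

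**Figure D4:**
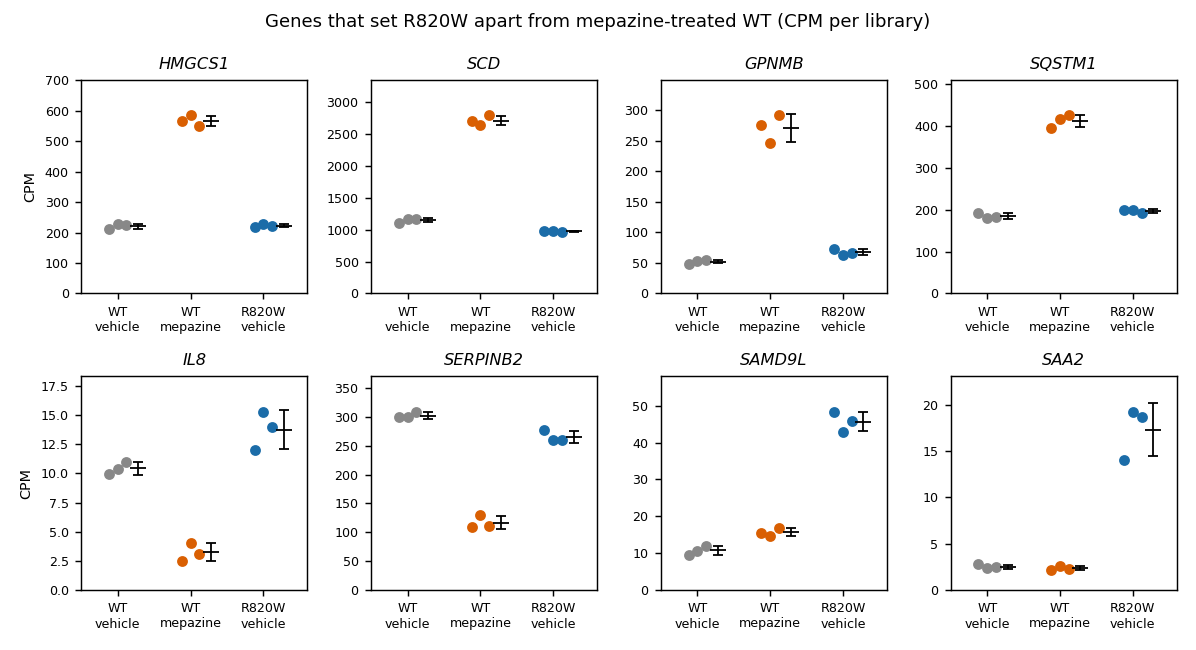
Level in CPM (y axis, from 0) in each library of WT with vehicle, WT with mepazine and R820W with vehicle (x axis); points are libraries a, b and c, and bars the mean ± SD of 3. HMGCS1, SCD, GPNMB and SQSTM1 are high with mepazine, IL8 and SERPINB2 are low with mepazine, and SAMD9L and SAA2 are high in R820W.

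Skin antimicrobial and acute-phase genes had the highest median of any list with at least 10 tested members, 1.23, with 8 of 12 higher in R820W and 2 lower. SAA2, serum amyloid A2, was at 14.04, 19.2 and 18.7 CPM in R820W and 2.18, 2.62 and 2.25 CPM in mepazine-treated WT (2.88 ± 0.154, adjusted p = 5.15e-14), and at 2.51 ± 0.224 in WT with vehicle. SAA1 was at 16.7, 20.02 and 19.03 CPM in R820W and 4.65, 4.85 and 4.74 CPM in mepazine-treated WT (1.97 ± 0.1201, adjusted p = 6.58e-13); the SAA1 and SAA2 sequences are nearly identical, so reads may be shared between them. S100A9, a subunit of calprotectin, was at 20.3, 16.5 and 20.9 CPM in R820W and 7.12, 9.11 and 7.403 CPM in mepazine-treated WT (1.29 ± 0.127, adjusted p = 1.7e-07), and at 9.45 ± 1.01 in WT with vehicle. LCN2, which sequesters bacterial siderophores, was at 31.6, 32.8 and 34.8 CPM in R820W and 10.9, 13.2 and 13.4 CPM in mepazine-treated WT (1.41 ± 0.139, adjusted p = 4.38e-06), and at 8.83 ± 1.64 in WT with vehicle. Every R820W library lay above every other for these genes, and mepazine-treated WT differed from untreated WT by a called amount for LCN2 alone among them (0.51 ± 0.164, adjusted p = 0.039). The complement genes C3 (1.16 ± 0.103, adjusted p = 5.85e-06) and CFB (1.35 ± 0.206, adjusted p = 1e-05) were also higher in R820W. RNASE7, an antimicrobial ribonuclease, was lower (-1.92 ± 0.2798, adjusted p = 3.08e-06), as was the beta-defensin gene DEFB1 (-0.84 ± 0.299, adjusted p = 0.047), whose call was lost in DESeq2 and without WT_mepazine a or c or R820W_vehicle a, b or c.

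Genes of the basal layer and of differentiation were divided within each list. Basal keratinocytes attach to the basement membrane through hemidesmosomes and express KRT5 and TP63, and lose both as they differentiate. Of 23 tested basal genes, 6 were higher in R820W and 9 lower. TP63, the master factor of the basal layer, was at 98.8, 98.01 and 98.8 CPM in R820W and 149, 143 and 152 CPM in mepazine-treated WT (-0.59 ± 0.0437, adjusted p = 3.66e-11), and at 128 ± 2.57 in WT with vehicle. COL17A1, a hemidesmosome collagen, was at 218, 220.4 and 231 CPM in R820W and 315, 305 and 305 CPM in mepazine-treated WT (-0.47 ± 0.0418, adjusted p = 1.4e-09), and at 315 ± 9.395 in WT with vehicle. DST, which anchors keratin filaments, was at 175, 181 and 182 CPM in R820W and 268, 261 and 261 CPM in mepazine-treated WT (-0.55 ± 0.0502, adjusted p = 1.81e-09). All 3 were lower in each R820W library. KRT5, the basal keratin, was at 1420.5, 1235 and 1317 CPM in R820W and 1813, 1618 and 1958 CPM in mepazine-treated WT (-0.44 ± 0.0791, adjusted p = 0.000887). The members higher in R820W included LAMA3 (0.26 ± 0.0423, adjusted p = 4.04e-05) and LAMB3 (0.21 ± 0.04495, adjusted p = 0.00106), which encode chains of the anchoring laminin of the skin. LAMA3 was lower than WT with vehicle in both groups, with log2 changes of -0.37 in R820W and -0.63 with mepazine.

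Of 27 terminal differentiation genes tested, 9 were higher in R820W and 4 lower, and the count lower was 0 without WT_mepazine a and 2 without WT_mepazine b or R820W_vehicle b. KLK5, a protease of the cornified layer, was at 109.7, 98.8 and 104 CPM in R820W and 63.4, 63.7 and 67.5 CPM in mepazine-treated WT (0.69 ± 0.0475, adjusted p = 7.59e-12), and at 75.6 ± 4.19 in WT with vehicle. KLK7, its partner, was at 27.5, 24.7 and 28.5 CPM in R820W and 13.6, 14.1 and 15.1 CPM in mepazine-treated WT (0.92 ± 0.07399, adjusted p = 1.62e-10), and at 17.97 ± 0.735 in WT with vehicle. OVOL1, a differentiation factor that represses MYC in mouse skin, was at 42.3, 41.6 and 42.1 CPM in R820W and 23.6, 22.6 and 27.4 CPM in mepazine-treated WT (0.78 ± 0.0685, adjusted p = 9.17e-10), and at 31.5 ± 1.47 in WT with vehicle. These 3 genes were above WT in R820W and below it with the drug. CERS3, which makes the very long chain ceramides of the barrier, was at 5.88, 4.49 and 5.43 CPM in R820W and 1.84, 1.29 and 1.701 CPM in mepazine-treated WT (1.70 ± 0.166, adjusted p = 4.01e-09). IVL, involucrin, an envelope precursor, was at 14.97, 15.2 and 15.2 CPM in R820W and 12.7, 12.3 and 14.4 CPM in mepazine-treated WT (difference 0.20, 95% interval 0.02 to 0.39, adjusted p = 0.107), and above WT with vehicle (7.95 ± 0.846) in each library of both groups.

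Stress and simple keratins were higher in R820W, 8 of 13 tested with 1 lower and a median of 0.31. KRT8 was at 1951, 1899 and 1933 CPM in R820W and 1489, 1575 and 1538 CPM in mepazine-treated WT (0.33 ± 0.0384, adjusted p = 1.8e-07), with 2138 ± 80.8 in WT with vehicle. KRT18, its partner in simple epithelia, was at 941, 924 and 906 CPM in R820W and 726, 755 and 706 CPM in mepazine-treated WT (0.34 ± 0.0425, adjusted p = 5.76e-07), with 1075 ± 60.4 in WT with vehicle. KRT17, a stress keratin of wounds and psoriasis, was at 590.3, 551 and 571 CPM in R820W and 439.9, 467 and 477 CPM in mepazine-treated WT (0.31 ± 0.0433, adjusted p = 4.12e-06), with 611 ± 14.9 in WT with vehicle. All 3 were lowest with mepazine. KRT81, a hair keratin with near-identical relatives, was at 6.96, 7.79 and 6.39 CPM in R820W and 1.33, 1.07 and 0.828 CPM in mepazine-treated WT (2.69 ± 0.191, adjusted p = 3.9e-12). KRT6A, a wound keratin whose reads may be shared with KRT6B and KRT6C, was at 407, 399.7 and 409 CPM in R820W and 393, 371 and 408 CPM in mepazine-treated WT, below 684 ± 15.3 in WT with vehicle in both groups, with a direct difference of 0.05 that did not pass (95% interval -0.04 to 0.15, adjusted p = 0.451).

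Junction genes went 6 higher and 5 lower of 22; the tight junction genes CLDN4 (0.47 ± 0.0457, adjusted p = 7.48e-09) and OCLN (0.31 ± 0.0494, adjusted p = 2.98e-05) were higher, and CLDN1 (-0.49 ± 0.0492, adjusted p = 1.23e-08) and the desmosomal cadherin DSG3 (-0.47 ± 0.0522, adjusted p = 9.97e-08) lower. Without WT_mepazine a, 3 were lower. Of 19 genes of the mesenchymal and TGF-beta response, 9 were higher and 4 lower. CALD1, an actin-binding protein of contractile cells, was at 88.8, 95.1 and 86.6 CPM in R820W and 23.3, 25.3 and 24.4 CPM in mepazine-treated WT (1.89 ± 0.06003, adjusted p = 7.53e-19), and at 20.1 ± 0.142 in WT with vehicle. FN1, fibronectin, was lower, at 667, 755 and 716 CPM in R820W and 1199, 1298 and 1155 CPM in mepazine-treated WT (-0.77 ± 0.0516, adjusted p = 5.69e-12). The members thus moved both ways. The fibroblast proteoglycans LUM (1.75 ± 0.348, adjusted p = 0.000809) and DCN (1.70 ± 0.395, adjusted p = 0.00511) were also higher in R820W, LUM at 3.87, 1.52 and 1.999 CPM in R820W and 0.517, 0.644 and 1.104 CPM in mepazine-treated WT, and they were 2 of the 4 fibroblast markers tested. COL5A1, a fibrillar collagen, was lower, with 80 counts over the 3 R820W libraries against 140 (-0.81 ± 0.209, adjusted p = 0.00505). COL1A1 held 47 to 89 counts a library in R820W and 53 to 79 with mepazine. COL1A2, COL3A1, COL6A3, PDGFRB and THY1 held 0 to 3 counts in each of the 6 libraries and PDGFRA none. The part of other cells in these values was not tested. Of 15 YAP-TEAD targets, 6 were lower and none higher, with ANKRD1, a mechanosensitive target, at 15.5, 12.6 and 12.99 CPM in R820W and 26.8, 30.1 and 27.6 CPM in mepazine-treated WT (-1.03 ± 0.0982, adjusted p = 4.74e-08).

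NRF2 target genes, which encode redox enzymes, were lower in R820W. Of 24 tested, 16 were lower and none higher (background 10.8% lower), with a median of -0.26. NQO1, a quinone reductase, was at 121, 111 and 109.8 CPM in R820W and 161, 156 and 159 CPM in mepazine-treated WT (-0.48 ± 0.04302, adjusted p = 1.43e-09), and at 163 ± 1.98 in WT with vehicle. FTL, the ferritin light chain, was at 219, 190.1 and 206 CPM in R820W and 371, 344 and 385 CPM in mepazine-treated WT (-0.84 ± 0.0635, adjusted p = 3.95e-09), and at 235 ± 4.19 in WT with vehicle. NQO1 was thus low in R820W against both WT groups, while FTL was high with mepazine. Of 10 iron genes tested, FTL among them, 4 were lower in R820W and none higher. AKR1C1 (-0.95 ± 0.114, adjusted p = 2.39e-07) and AKR1C2 (-1.28 ± 0.124, adjusted p = 6.25e-06), keto-steroid reductases that are nearly identical in sequence, were also lower. Of 22 genes of the AHR and retinoid pathways, 7 were higher and 8 lower; without 1 library at a time the counts were 4 to 7 and 4 to 5. CYP1A1, the classical AHR target, was lower (-0.93 ± 0.1299, adjusted p = 3.11e-06), and CRABP2, which carries retinoic acid, higher (1.84 ± 0.2096, adjusted p = 6.6e-05). Of 22 hypoxia and glycolysis genes, 2 were higher and 7 lower, among them BNIP3 (-0.61 ± 0.191, adjusted p = 0.0214), a mitophagy receptor that was below WT with vehicle in both groups (-1.47 and -0.86). The direct call of BNIP3 was lost without WT_mepazine a or b or R820W_vehicle a or c.

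Amino acid stress genes driven by ATF4 were below WT with vehicle in both groups, 21 of 31 lower in R820W and 19 with mepazine. Directly compared, 8 were higher in R820W and 4 lower, and the count higher was 5 without WT_mepazine a or R820W_vehicle c. ASNS, asparagine synthetase, was at 53.99, 64.4 and 60.8 CPM in R820W and 44.6, 52.4 and 42.3 CPM in mepazine-treated WT (0.36 ± 0.0828, adjusted p = 0.00391), and at 80.95 ± 7.16 in WT with vehicle. DDIT3, the stress factor CHOP, was lower in R820W, at 6.23, 4.82 and 6.08 CPM in R820W and 9.37, 8.805 and 9.33 CPM in mepazine-treated WT (-0.68 ± 0.117, adjusted p = 6.26e-05). Lists of housekeeping and cell cycle genes held few calls. Of 32 G2/M genes, 1 was higher and 4 lower, and all 32 intervals lay within -0.5 to 0.5. Of 33 G1/S and replication genes, 3 were higher and 3 lower, of 33 respiratory chain genes 2 higher, and of 26 proteasome genes 3 higher. In either direction these shares (6.06 to 18.2%) lay below the background of 21.2%. Without 1 library at a time, G2/M counts were 0 to 1 and 2 to 4, G1/S counts 3 to 6 and 1 to 3, respiratory chain 0 to 2 and proteasome 1 to 2. All 3 R820W values lay above all 3 mepazine values in 13 of 33 G1/S and 13 of 33 respiratory chain genes. The same held for 11 of 26 proteasome and 3 of 32 G2/M genes. R820W values lay below all mepazine values in 5, 3, 1 and 7 genes of these lists, respectively. Over all genes the shares without overlap were 19.1% above and 19.2% below. Heat shock genes held 2 higher and 1 lower of 18 (16.7% called), and ER chaperones 2 higher and 2 lower of 21 (19.0%), near the 21.2% called over all genes. Of 22 p53 targets, 4 were higher and 2 lower (27.3% called), also near the background. GDF15, a stress cytokine on that list, was at 0.271, 0.254 and 0.261 CPM in R820W and 0.922, 0.902 and 0.506 CPM in mepazine-treated WT (-1.56 ± 0.427, adjusted p = 0.00569), and at 0.204 ± 0.0988 in WT with vehicle. Levels in R820W and in WT with vehicle lay not far above that of 3 counts in a library (0.111 to 0.145 CPM). For Notch the counts were 2 higher and 4 lower of 13 (46.2% called). They were 4 and 3 of 18 for FOXO and growth arrest (38.9%), and 3 and 6 of 21 for sphingolipid enzymes (42.9%). The Notch count was 1 higher without WT_mepazine a and 2 lower without R820W_vehicle a. The FOXO count was 2 higher without WT_mepazine a or c or R820W_vehicle a or c, and 5 lower without WT_mepazine b. The sphingolipid count was 1 higher without WT_mepazine a or R820W_vehicle a or c. NOTCH3, a Notch receptor, had the widest difference of its list, at 24.7, 18.3 and 23.5 CPM in R820W and 10.4, 7.86 and 10.3 CPM in mepazine-treated WT (1.22 ± 0.171, adjusted p = 0.000181).

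The widest single-gene differences were of genes scarce in 1 of the groups. Among the 12 highest and 12 lowest, the lower group held from 8 counts (SNX2) to 146 (TRIM31) over its 3 libraries. CCDC88C, a Dishevelled-binding scaffold, held 678, 505 and 540 counts in the R820W libraries and 3, 7 and 2 in the mepazine libraries. The ratio of the groups was 143 with an exact 95% counting interval of 81.6 to 277, which covers counting error only, and the fold change was 7.11 ± 0.398, adjusted p = 4.07e-20. MME, the peptidase neprilysin, held 334, 317 and 313 counts against 9, 17 and 10 (ratio 26.6, 19.1 to 38.3). ALDH1A1, a retinaldehyde dehydrogenase, stood at 42.8, 32.5 and 36.5 CPM in R820W and 1.77, 1.503 and 1.43 CPM in mepazine-treated WT (4.56 ± 0.175, adjusted p = 4.12e-17). In WT with vehicle the means were 0.175 CPM for CCDC88C, 0.428 for MME and 1.06 for ALDH1A1, so all 3 were scarce in WT with or without the drug. The remaining genes among the 12 highest were B3GALT5, CTAG2, PTPRZ1, CNNM1, TRIM31, ADAM23, TNS1, RFTN1 and PLA2G16, with ratios of 7.46 to 21.9. CTAG2 shares sequence with CTAG1, so its counts may be split.

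In the other direction, TFCP2L1, a grainyhead-related transcription factor, held 4, 3 and 3 counts in R820W and 246, 229 and 173 with mepazine (ratio 65.1, exact 95% interval 35.2 to 137). SNX2, a sorting nexin of the retromer, held 1, 5 and 2 counts against 177, 134 and 128 (ratio 55.2, 27.7 to 129). ULK2, an autophagy-starting kinase, held 18, 25 and 25 counts against 201, 174 and 160 (ratio 7.91, 6.14 to 10.3). Their levels in WT with vehicle were 8.84 ± 0.702, 5.399 ± 0.434 and 5.86 ± 0.0613 CPM, so the low values were those of R820W. The others among the 12 lowest were PCDH9, GSPT2, ADAMTS12, DSEL, CD1D, TP73, LYPD1, ZFP42 and CCL2, with ratios of 5.69 to 14.5. TP73 is the paralog of TP63, and GSPT2 shares sequence with GSPT1. LYPD1 was uneven within R820W, with 16, 4 and 29 counts, and its fold change ranged from -3.31 to -2.12 over the alternatives tried.

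Some genes were moved from WT with vehicle by similar amounts in both groups. Genes were taken by size from those called the same way in both, with the interval of the direct difference within -0.5 to 0.5. That choice bounds the intervals below in advance. Both comparisons with WT also share the vehicle libraries, so the likeness of these genes is a description. CDKN2B, the cell cycle inhibitor p15, was at 26.5, 20.5 and 21.4 CPM in R820W and 20.7, 19.6 and 20.9 CPM in mepazine-treated WT, against 8.92 ± 1.13 in WT with vehicle, a change of 1.36 and 1.20. PADI1, which deiminates keratins in the upper epidermis, was at 12.7, 10.5 and 11.5 CPM in R820W and 11.5, 8.76 and 10.7 CPM in mepazine-treated WT, against 5.63 ± 0.2597. FGD3, an exchange factor for CDC42, was at 20.5, 18.1 and 17.2 CPM in R820W and 20.2, 19.8 and 23.7 CPM in mepazine-treated WT, against 10.5 ± 0.816. The direct differences of these 3 did not pass (95% intervals -0.02 to 0.35, -0.07 to 0.39 and -0.35 to -0.02; adjusted p = 0.226, 0.35 and 0.108). FGD3 passed without R820W_vehicle a (adjusted p = 0.0484). INHBA, the activin A subunit, was at 6.42, 6.47 and 5.69 CPM in R820W and 6.899, 6.3995 and 5.98 CPM in mepazine-treated WT, against 11.1 ± 0.989. ADAMTS6, a secreted metalloprotease, was at 9.399, 8.55 and 8.69 CPM in R820W and 9.74, 8.42 and 8.74 CPM in mepazine-treated WT, against 15.4 ± 0.517. Both were lower than WT in each library, and their direct differences were -0.06 (-0.27 to 0.16, adjusted p = 0.783) and -0.02 (-0.20 to 0.16, adjusted p = 0.932). ANTXR2, an anthrax toxin receptor, was the third, at 8.12, 7.96 and 8.04 CPM in R820W and 9.44, 9.66 and 9.43 CPM in mepazine-treated WT, against 17.5 ± 0.707; here R820W was lower (-0.24 ± 0.0833, adjusted p = 0.0378), a call lost in DESeq2, with no filter on low counts and without WT_mepazine a, b or c or R820W_vehicle a, b or c. That a p missed the threshold does not show that the groups were equal, and the intervals give what the data allow.

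Other genes were moved to opposite sides of WT. IL8 and IL1R1, described with their families, were higher than WT in R820W and lower with mepazine. CXorf49B, an uncharacterised gene with a near-identical copy, was the third of this kind, at 16.2, 20.6 and 18.4 CPM in R820W and 2.44, 2.75 and 2.39 CPM in mepazine-treated WT (2.86 ± 0.141, adjusted p = 1.59e-15), and at 5.29 ± 0.962 in WT with vehicle. F2R, the thrombin receptor PAR1, was at 10.8, 8.68 and 10.8 CPM in R820W and 55.9, 52.7 and 58.4 CPM in mepazine-treated WT (-2.47 ± 0.0855, adjusted p = 1.54e-17), and at 24.8 ± 1.004 in WT with vehicle. IL6R, the IL-6 receptor, was at 2.51, 1.74 and 1.74 CPM in R820W and 10.3, 11.9 and 10.4 CPM in mepazine-treated WT (-2.43 ± 0.147, adjusted p = 1.54e-13), and at 4.31 ± 0.487 in WT with vehicle. MYLK, the myosin light chain kinase, was at 2.98, 3.26 and 2.303 CPM in R820W and 13.9, 13.7 and 14.2 CPM in mepazine-treated WT (-2.29 ± 0.12998, adjusted p = 5.21e-14), and at 4.897 ± 0.573 in WT with vehicle. In F2R, IL6R and MYLK, each R820W library lay below all WT libraries and each mepazine library above all WT vehicle libraries.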

How the data were processed

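RNA sequencing of HaCaT cells gave 15 libraries, 3 in each of 5 groups, and the sample titles supplied each library's group and letter. The authors deposited a table of raw counts, with a column for each library and a row for each gene symbol. Library preparation from total RNA kept strand, per the labels' protocols. Per the submitters' processing notes, FastQC, MACS2, DESeq2 and the hg19 build were named, without roles or versions. For the aligner, the counting tool, its annotation and its use of strand, the entry is "not given in the sources used here". Reads of genes that overlap, lie antisense or are near copies may therefore be split between symbols.

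The filter filterByExpr (minimum count 10) left 14971 of 28518 symbols. A robust quasi-likelihood model of edgeR 4.0.16 (R 4.3.3, limma 3.58.1), with TMM scaling and a term for group alone, was fitted to the 15 libraries together. Tests of 3 contrasts were two-sided, and p-values were adjusted by Benjamini and Hochberg's method across the 14971 genes, with a threshold of 0.05. Standard errors and 95% intervals come from that fit. CPM use the TMM-scaled sizes, except where they are said to be of all counts. Performance of the test was checked on simulated data with known changes. Alternatives were DESeq2 1.42.0, its size factors in edgeR, a replicate block, no filter, a minimum of 1 CPM in 3 libraries, a fit of the compared groups alone, and fits that drop 1 library each. Within a group, libraries differed by more than sampling noise (3.31 to 7.81 units of chi-square for each gene), so none was a copy of another. The series describes 3 independent experiments, but the labels tie no letter to one. The p-values measure the spread between these samples, part of which may be technical.

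Gene lists numbered 46, with 961 of 1071 entries tested. The comparison, members and lists were chosen with earlier results of these data known, and list counts are descriptions. Genes were named by a rule: CARD14, MYC, MALT1 and BCL10; the 12 highest and 12 lowest fold changes among called genes with at least 2 CPM in the higher group and no overlap; up to 4 members per list by adjusted p; and, among genes of at least 10 CPM called in both groups against WT with vehicle, the 6 largest that changed the same way with a direct 95% interval within -0.5 to 0.5, and the 6 largest that changed in opposite ways. A further 47 list members were chosen after their values were seen; some genes are not reported here, and the others of these are AKR1C2, ASNS, BNIP3, C3, CDK4, CFB, CLDN1, COL5A1, CRABP2, CTSA, CTSZ, CYLD, DDIT3, DEFB1, DSG3, EGF, EGFR, ELOVL1, FN1, FOSL1, GDF15, HBEGF, IFI16, IL1A, IL1R2, ISG15, IVL, KRT6A, LAMA3, LAMB3, LCN2, MAN2B1, MMP1, NFKBIA, NLRC5, NOTCH3, NPM1, ODC1, RNASE7, SCD5, SGSH, SREBF2, STAT2 and TIMP2. Promoters are RefSeq windows on GRCh38.p14, matched by symbol for 700 of 912 distinct list members, and were used for sequence alone.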

Additional observations from a re-analysis of the deposited data

How the results depend on the processing

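The number of genes called between R820W and mepazine-treated WT was 3169 in the reported fit, 2778 with DESeq2, 3153 with DESeq2 size factors, 3124 with no filter, 3112 with at least 1 CPM in 3 libraries and 3731 with only the groups compared. With each library left out in turn the range was 2373 to 2587. With a replicate block it was 3787, and MYC was 0.03 (adjusted p = 0.57). Letters did not clearly pair the libraries of the direct comparison. There, deviations of same-letter libraries correlated at -0.027, 0.105 and 0.0327, and R820W_vehicle a correlated best with WT_mepazine c (0.121). Between mepazine-treated WT and WT with vehicle, same-letter libraries correlated at 0.0441, 0.0835 and 0.039, each above the values with other letters. A weak letter effect may thus be present. The labels tie no letter to an experiment, so the block is given here only. With it, ODC1 (-0.12, adjusted p = 0.0119) and IVL (0.21, adjusted p = 0.0386) passed; ODC1 also passed with only the groups compared (adjusted p = 0.037). MYC did not pass under any of the alternatives listed in the methods. The median of all genes moved by less than 0.1 in each. Of 226 named genes called, 188 kept their call under the alternatives run for them and none changed direction. Each list count above 6 that moved by more than 1.5 times without 1 library is given beside its list. Cytosolic ribosomal protein genes higher in R820W numbered 3, and 12 with only the groups compared. Groups of 3 libraries and mRNA counts limit what can be seen: symbols under the filter were not tested, and protein or cleavage was not measured.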
